A study of Mus musculus with 7 samples.

Results

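Glutathione S-transferases (GSTs) join the tripeptide glutathione to reactive, mostly fat-like compounds, such as the aldehydes that form when unsaturated lipids are oxidised, and so make them soluble and ready for export from the cell. The soluble enzymes form classes named by Greek letters (alpha, mu, pi, theta, omega, kappa and others), and the microsomal enzymes (MGSTs) form a separate family of membrane proteins. In brain and optic nerve, mu-class enzymes have long been known from astrocytes and the pi-class enzyme from oligodendrocytes (OLs), and several of the genes carry binding sites for NRF2, the transcription factor of the response to oxidants and electrophiles. The genes described here are 10 GST genes, Gstm1, Gstm2, Gstm5, Gstm7, Gstp1, Gsta4, Gstt1, Gstk1, Mgst1 and Mgst3, taken by symbol from a table of 22880 genes. They were chosen with results of the comparison between genotypes in view, so their differences between genotypes are given as a description and without p-values. All 10 passed the minimum of expression used for testing, which asked for 0.5 FPKM or more in 3 or more samples.

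RNA was measured in optic nerves of mice at postnatal day 14 (P14). The 4 control mice (CT1 to CT4) were FASN lox/lox without Cre, and the 3 mutant mice (cMU1 to cMU3) were olig2cre FASN lox/lox, in which Cre under Olig2 regulatory elements acts in the OL lineage and inactivates Fasn, the gene for fatty acid synthase. All 7 mice therefore carried the floxed allele, which came from 129X1/SvJ stock, had been crossed with 129X1/SvJ, C57BL/6 and DBA mice, and had been backcrossed into C57Bl/6 for at least 3 generations, and the nerves of both sides of a mouse made 1 sample. Values are FPKM, reads scaled for gene length and library size, which allow levels of different genes to be set side by side. The libraries held between 27457615 and 43461751 estimated reads, and each of the 10 genes rested on between 354 and 5918 of them in every library. Fasn itself was listed at 169 to 228 FPKM in CT and at 49.0 to 69.3 FPKM in cMU nerves, a log2 difference of -1.86 (SE 0.138, adjusted p = 0.00312 from limma-trend). The nerves held OLs, astrocytes, microglia, vessels and meninges, and in such bulk samples a change in the number of cells of a type and a change in RNA per cell cannot be told apart.

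The mu-class genes lie side by side on chromosome 3 of GRCm38 and resemble one another, so how well their reads can be told apart bears on every value below. To show this, the longest run of bases common to the transcripts of Gstm1 and Gstm2 is printed with the aligned bases of the other mu-class members, in lower case where a base equals that of Gstm1 and in capitals where it differs. The run is part of the coding sequence in exon 4 of each transcript (GENCODE M21), at chr3:108016526-108016585 in Gstm1, chr3:107985254-107985313 in Gstm2 and chr3:107930480-107930539 in Gstm7, all on the minus strand, and at chr3:107897303-107897362 on the plus strand in Gstm5.
Gstm1: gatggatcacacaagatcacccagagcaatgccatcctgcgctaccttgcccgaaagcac
Gstm2: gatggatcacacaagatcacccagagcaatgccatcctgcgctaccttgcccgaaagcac
Gstm7: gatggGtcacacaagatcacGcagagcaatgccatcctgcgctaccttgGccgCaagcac
Gstm5: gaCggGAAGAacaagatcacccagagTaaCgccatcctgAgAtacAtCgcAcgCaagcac
Over these 60 bases Gstm2 did not differ from Gstm1, whereas Gstm7 differed at 4 and Gstm5 at 14 positions. The run is shorter than the reads, which were 125 bases long before low-quality ends were trimmed. Over the whole coding sequence Gstm1 was 86.0% identical to Gstm2, 82.6% to Gstm7 and 71.2% to Gstm5.

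Every stretch of 125 bases in the protein-coding transcripts of each gene was looked up in the transcripts of all other genes of GENCODE M21. Of the 1517 stretches of Gstm1, 17 (1.12%) also occurred elsewhere, in the processed pseudogenes Gm8834 and Gstm2-ps1, whereas none of the stretches of Gstm2, Gstm5, Gstm7, Gsta4, Gstt1, Gstk1, Mgst1 or Mgst3 did. The search counted exact matches of full read length only. It did not cover trimmed, shorter reads or the mismatches that the authors allowed in alignment. The estimated reads of Gstm2 were not whole in CT1 (984.5) or CT2 (745.3), so its separation from other genes may be incomplete. Gstp1 shared far more than the other members. Of its 981 stretches, 331 (33.7%) also occurred in Gstp2, a neighbouring pi-class gene whose coding sequence differed from that of Gstp1 at 12 of 633 positions and whose transcript shared an unbroken run of 369 bases with it. Of these stretches 179 also occurred in the processed pseudogene Gstp-ps. The authors' program RSEM divides such reads between genes by estimation, so the split between Gstp1 and these genes is uncertain to that extent. The reads assigned to Gstp2 were few beside those of Gstp1, with 35.7 to 87.3 estimated reads per library against 3452 to 5918. Gstm3, which lies between Gstm6 and Gstm2 and is 89.5% identical to Gstm1 in coding sequence, was assigned between 0.01 and 2.07 estimated reads per library, at most 0.0504 FPKM.

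Known NRF2 sites hold the core TGACNNNGC, and this core was searched on both strands in the RefSeq promoter windows (GRCm38.p6, 250 bases before to 50 after each start site). It was present in 12.4% of all 32851 windows and in 3 of the 12 windows found for 9 members (Gsta4 had no entry). The matches are shown in capitals with 10 bases on each side, read along the gene. With these flanks they lie at chr3:107895802-107895830 on the plus strand for Gstm5, at chr3:107931725-107931753 on the minus strand for Gstm7 and at chr6:138140461-138140489 on the plus strand for Mgst1, where the core reads on the opposite strand. In GENCODE M21 each stretch, flanks included, overlaps an exon of the gene outside its coding sequence. Whether the core alone does so was not examined.
Gstm5: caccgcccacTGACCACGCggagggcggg
Gstm7: tctgaagaccTGACAAAGCgaagccaatc
Mgst1: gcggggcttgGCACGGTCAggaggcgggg
A match is a sequence of letters and was not shown to be bound.

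Among the members, Gstp1 was listed with the highest mean level in CT nerves, 174 ± 10.3 FPKM (SD, n = 4), followed by Gstm5 with 143 ± 4.51 and Gstm1 with 123 ± 4.11. These genes kept that order in all 4 CT mice, and their ranges did not overlap. Gstm7 (64.2 ± 6.4) and Mgst1 (54.7 ± 5.51) came next, with overlapping ranges and Gstm7 above Mgst1 in 3 of 4 mice. Gsta4 (28.6 ± 1.21) and Gstm2 (27.0 ± 2.96) also overlapped in CT, with Gsta4 above Gstm2 in 3 of 4 mice. Gstt1 (16.5 ± 2.36), Mgst3 (14.7 ± 1.93) and Gstk1 (13.3 ± 0.939) closed the order, each overlapping the next. In cMU nerves the top of the order was different, with means of 176 FPKM for Gstm5, 171 for Gstp1 and 167 for Gstm1, and Gstp1 was above Gstm5 in 1 of 3 mice. Mgst1 was above Gstm7 in all 3 cMU mice.

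**Figure D1:**
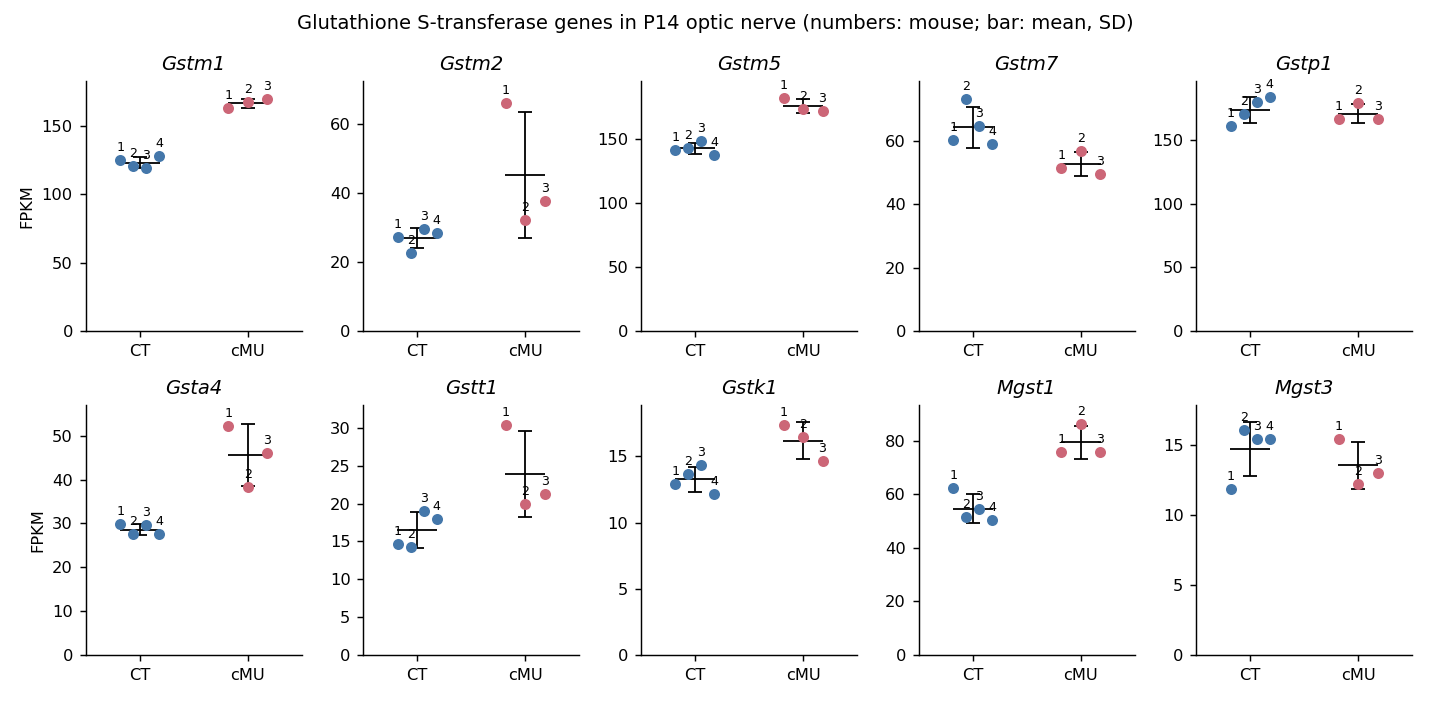
Expression of the 10 GST genes in FPKM (vertical axes start at 0) in each CT (blue) and cMU (red) mouse, numbered by replicate, with the mean and SD of the genotype as black bars. For 7 genes all cMU mice were above all CT mice, for Gstm7 all were below, and for Gstp1 and Mgst3 the genotypes overlapped.

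By description, 7 of the 10 genes were higher in every cMU mouse than in any CT mouse, and 1, Gstm7, was lower in every one. Over all 13866 genes tested, every cMU mouse was above every CT mouse in 12.9% and below in 8.26%. In the fit across all genes (limma-trend, adjusted p under 0.05), 4 members passed as higher, Gstm1, Gstm5, Gsta4 and Mgst1, and none as lower, against 1.26% of all genes higher and 1.36% lower (175 and 188 genes, or 135 and 221 with median-of-ratios scaling and 102 and 266 on the normalized counts). With the replicate number as a block, 5 passed, Gstm1, Gstm2, Gsta4 and Mgst1 as higher and Gstm7 as lower, whereas Gstm5 did not; all genes then passed at 6.42% higher and 1.94% lower. In the blocked fit CT4, whose number has no counterpart among the cMU mice, does not enter the difference. The median log2 difference of the members was 0.37, and that of all genes was 0.05. Since the members were chosen on this contrast, nothing is read from these counts. Without CT2, CT3 or cMU3 no member passed with limma-trend, and 15, 6 and 6 genes passed in the whole table, whereas without cMU2 5 members and 909 genes in all passed. The log2 difference of Gstm1 stayed between 0.42 and 0.45 in these fits, and that of Gstm5 between 0.28 and 0.32.

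Gstm1 (ENSMUSG00000058135, chromosome 3, 108012255 to 108017973, minus strand) encodes a mu-class enzyme with broad activity towards electrophiles. Its level was 125.5, 120.5, 119.2 and 127.9 FPKM in CT1 to CT4 and 163.0, 167.3 and 169.7 FPKM in cMU1 to cMU3. The groups were far apart compared with their spread, and the coefficient of variation was 3.33% in CT and 2.04% in cMU. The log2 difference was 0.43 (SE 0.0541), and it lay between 0.42 and 0.45 with any 1 mouse left out. The mean in cMU was 135% of that in CT.

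Gstm5 (ENSMUSG00000004032, chromosome 3, 107895821 to 107898686, plus strand) is the mu-class gene at one end of the cluster and the only one of those described here on the plus strand. Its level was 141.2, 143.1, 148.5 and 137.7 FPKM in CT1 to CT4 and 181.9, 173.5 and 172.0 FPKM in cMU1 to cMU3. The genotypes did not overlap, and all 3 cMU mice were near one another, with a log2 difference from CT of 0.30 (SE 0.0552). The ratio of Gstm1 to Gstm5 was 0.866 ± 0.0549 (SD, n = 4) in CT and 0.949 ± 0.0472 (SD, n = 3) in cMU nerves.

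Gstm2 (ENSMUSG00000040562, chromosome 3, 107981702 to 107986453, minus strand), whose gene lies next to Gstm3 and Gstm1, had the widest relative spread of the members in cMU mice, with a coefficient of variation of 40.3%. Its level was 27.23, 22.75, 29.5 and 28.38 FPKM in CT1 to CT4 and 66.21, 32.17 and 37.71 FPKM in cMU1 to cMU3. One library, cMU1, stood well above the others of its genotype, and the lowest cMU value was close to the highest CT value. The log2 difference was 0.68 (SE 0.215) with all mice and 0.37 without cMU1. The ratio of Gstm2 to Gstm1 was between 0.189 and 0.247 in the CT mice, 0.192 and 0.222 in cMU2 and cMU3, and 0.406 in cMU1.

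Gstm7 (ENSMUSG00000004035, chromosome 3, 107926334 to 107931817, minus strand) went the other way. Its level was 60.31, 73.15, 64.54 and 58.96 FPKM in CT1 to CT4 and 51.31, 56.8 and 49.59 FPKM in cMU1 to cMU3. All cMU mice were below all CT mice, but cMU2 was close to CT4. On the log2 scale the difference was -0.28 (SE 0.0864), and it was between -0.34 and -0.22 with any 1 mouse left out. The ratio of Gstm1 to Gstm7, which lie in the same cluster, was 1.94 ± 0.236 (SD, n = 4) in CT and 3.18 ± 0.238 (SD, n = 3) in cMU nerves. That the genotypes did not overlap in this ratio follows from the ranges of the 2 genes and is no separate result.

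The other mu-class genes of the cluster were tested, as they were no members. Gstm6, between Gstm7 and Gstm3, was 2.83 FPKM on average in CT and 4.28 in cMU (log2 difference 0.51, SE 0.136, adjusted p = 0.0788 from limma-trend), which did not pass. Gstm4, at the far end beyond Gstm1, had means of 6.75 and 6.93 FPKM (log2 difference 0.04, SE 0.09, adjusted p = 0.83 from limma-trend). Gstm3 was too low to test. Along the cluster, genes with higher means in cMU (Gstm5, Gstm6, Gstm2, Gstm1) thus alternated with 1 that had a lower mean (Gstm7), and Gstm4 at the end was nearly equal.

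**Figure D2:**
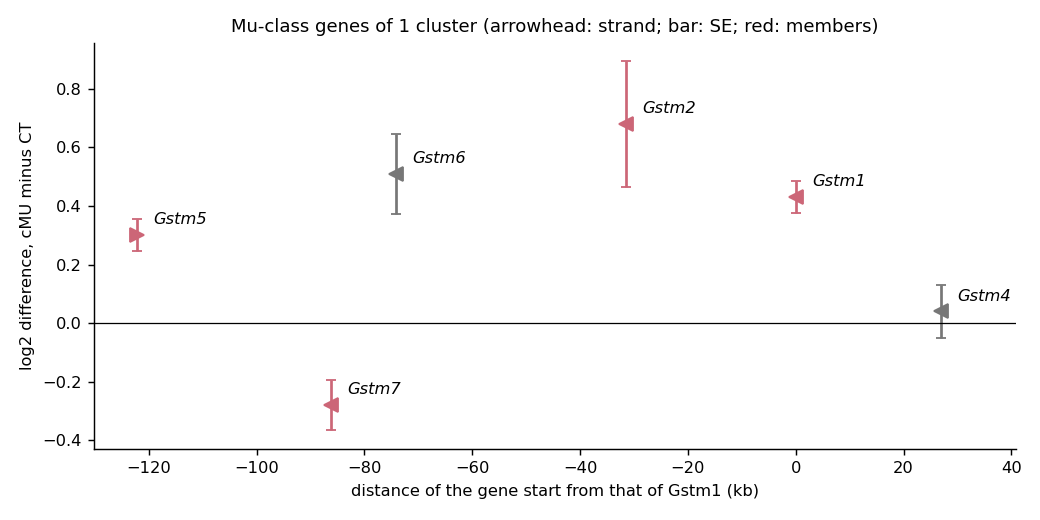
Log2 difference (cMU minus CT, log2(FPKM + 0.5), bars: SE) of the 6 tested mu-class genes against the distance of their start from that of Gstm1 in kb, with the arrowhead giving the strand. Gstm7 at -0.28 lies between Gstm5 at 0.30 and Gstm6 at 0.51, and Gstm4 lies near 0.

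Gstp1 (ENSMUSG00000060803, chromosome 19, 4035407 to 4037921, minus strand) encodes the pi-class enzyme, an old marker of OLs. Its level was 160.8, 170.0, 179.9 and 183.8 FPKM in CT1 to CT4 and 166.5, 179.1 and 166.1 FPKM in cMU1 to cMU3. The genotypes overlapped, and the log2 difference was -0.02 (SE 0.0663). Beside it, the summed level of 11 markers of mature OLs was 39500 to 46540 FPKM in CT and 29450 to 37260 FPKM in cMU nerves. Mbp made up most of that sum, with means of 26400 and 18800 FPKM, and did not pass (adjusted p = 0.147 from limma-trend). Neither did Mog (log2 difference -0.23, adjusted p = 0.246 from limma-trend). Of the 11, 2, Mag and Cnp, passed as lower (limma-trend, adjusted p = 0.0437 and 0.048), but not with the replicate block (0.0726 and 0.0605). For 6 of the 11 the genotypes overlapped, Ugt8a was higher in every cMU mouse (log2 difference 0.29, adjusted p = 0.152 from limma-trend), and the mean deviation of the list from CT was -0.39, -0.01 and -0.30 on the log2 scale in cMU1 to cMU3. Of 8 markers of newly formed OLs 2, Gpr17 and Tmem2, passed as lower, and of 8 markers of OL progenitors 1, Cspg4, passed as lower (limma-trend, adjusted p = 0.0327, 0.0337 and 0.0474). The defining markers Enpp6, Bmp4 and Pdgfra did not pass, with log2 differences of -0.36, 0.16 and -0.14 (limma-trend, adjusted p = 0.0608, 0.508 and 0.537). The log2 difference was below 0 for 7 and above 0 for 1 of the newly formed OL markers, and for 6 and 2 of the progenitor markers. In this fit 1.36% of all genes passed as lower. With the block 5 of the newly formed OL markers and 2 of the progenitor markers passed as lower, beside 1.94% of all genes. Gstp1 made up 26.4% ± 1.24 (SD, n = 4) of the summed FPKM of the 10 members in CT and 21.6% ± 1.3 (SD, n = 3) in cMU nerves, as the sum of the members was 658 ± 11.9 FPKM in CT and 789 ± 27.9 FPKM in cMU. Gstp2, with which Gstp1 shares reads, was 2.12 FPKM in CT and 1.97 in cMU (log2 difference -0.08, SE 0.149, adjusted p = 0.766 from limma-trend).

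Gsta4 (ENSMUSG00000032348, chromosome 9, 78191966 to 78209348, plus strand) encodes an alpha-class enzyme known for its high activity towards 4-hydroxynonenal, an aldehyde from oxidised lipids. Its level was 29.75, 27.6, 29.52 and 27.5 FPKM in CT1 to CT4 and 52.26, 38.29 and 46.16 FPKM in cMU1 to cMU3. All cMU mice were above all CT mice, with the highest value again in cMU1. On the log2 scale they differed by 0.65 (SE 0.0989), or by 0.55 without cMU1.

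Mgst1 (ENSMUSG00000008540, chromosome 6, 138140316 to 138156755, plus strand) encodes a microsomal enzyme that conjugates glutathione and also reduces lipid hydroperoxides. Its level was 62.48, 51.48, 54.5 and 50.2 FPKM in CT1 to CT4 and 75.94, 86.27 and 75.77 FPKM in cMU1 to cMU3. Unlike in Gsta4, the highest cMU value was in cMU2, and the log2 difference was 0.54 (SE 0.0875). Mgst3 (ENSMUSG00000026688, chromosome 1, 167371966 to 167393841, minus strand), another microsomal enzyme, was 11.86, 16.11, 15.42 and 15.46 FPKM in CT1 to CT4 and 15.45, 12.21 and 13.01 FPKM in cMU1 to cMU3, so the genotypes overlapped (log2 difference -0.11, SE 0.121, and -0.21 to -0.04 with any 1 mouse left out). Among the controls CT1 was far below the others, and the difference was -0.21 without it, as it was without cMU1. The ratio of Mgst1 to Mgst3 was 3.81 ± 0.983 (SD, n = 4) in CT and 5.93 ± 1.08 (SD, n = 3) in cMU nerves, and the ranges overlapped because the ratio was 5.27 in CT1 and 4.92 in cMU1.

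Gstt1 (ENSMUSG00000001663, chromosome 10, 75783813 to 75798584, minus strand) encodes a theta-class enzyme. Its level was 14.64, 14.28, 18.96 and 18.02 FPKM in CT1 to CT4 and 30.38, 19.97 and 21.31 FPKM in cMU1 to cMU3. CT3 and CT4 were close to cMU2, and cMU1 stood apart from the other cMU mice. The log2 difference was 0.51 (SE 0.156) and 0.33 without cMU1. Y-linked Ddx3y was at 40.03 to 43.18 FPKM in CT3, CT4 and cMU3 and at no more than 0.0568 FPKM in the other 4 mice, and with this split as a term the log2 difference of Gstt1 was 0.53. Gstk1 (ENSMUSG00000029864, chromosome 6, 42245935 to 42250441, plus strand), the kappa-class enzyme of mitochondria and peroxisomes, was 12.9, 13.69, 14.32 and 12.16 FPKM in CT1 to CT4 and 17.38, 16.5 and 14.65 FPKM in cMU1 to cMU3. The genotypes did not overlap, but cMU3 was only just above CT3 (log2 difference 0.28, SE 0.0857).

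**Figure D3:**
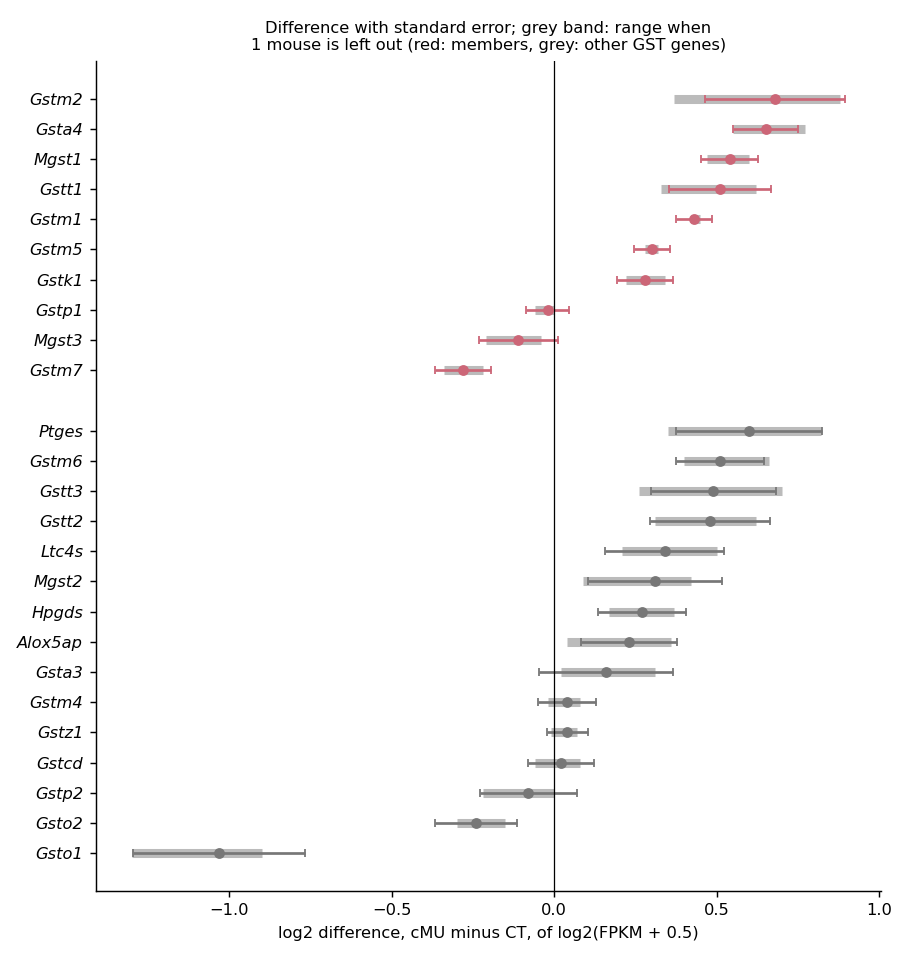
Log2 difference (cMU minus CT, log2(FPKM + 0.5)) of the 10 members (red) and the 15 other GST genes tested (grey), with bars for the SE and grey bands for the range over the 7 fits that leave out 1 mouse. The band of Gstm2 runs from 0.37 to 0.88 and that of Gstm1 from 0.42 to 0.45.

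The other genes of the family were taken by name and tested in the same fit. Of 19, 15 passed the minimum, and with limma-trend none passed the adjusted threshold, whereas 5 (33.3%) had an unadjusted p under 0.05 (Gstm6, Gstt2, Gstt3, Gsto1 and Ptges), beside 24.4% of all genes tested. With the replicate block 3 passed, Gstt3 and Ltc4s as higher and Gsto1 as lower (limma-trend with adjusted p = 0.0448, 0.0369 and 0.0264). Of all genes, 6.42% then passed as higher and 1.94% as lower. The 2 with at least 10% of the mean level of Gstm1 over all 7 mice were Gsto1 and Gstz1. Gsto1, the omega-class enzyme that reduces mixed disulfides of glutathione, was 137.7, 134.9, 71.19 and 121.2 FPKM in CT1 to CT4 and 45.32, 79.78 and 45.25 FPKM in cMU1 to cMU3. CT3 lay below cMU2, so the genotypes overlapped (log2 difference -1.03, SE 0.264, adjusted p = 0.0717 from limma-trend, 0.0264 to 0.181 over the alternatives). In 2 of the CT mice its level was above that of Gstm1, whereas in cMU mice it was well below. Gstz1, the zeta-class enzyme of tyrosine breakdown, had means of 24.5 and 25.3 FPKM (log2 difference 0.04, SE 0.063, adjusted p = 0.705 from limma-trend). The members made up 76.9% ± 2.99 (SD, n = 4) of the summed FPKM of all 29 GST genes in CT and 83.8% ± 1.13 (SD, n = 3) in cMU nerves. Gsto1 overlaps Cfap43 on the opposite strand, and whether the counting used the strand was not given in the sources used here.

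The theta-class neighbours Gstt2 and Gstt3 were, like Gstt1, highest in cMU1. In cMU2, however, Gstt3 deviated from the CT mean by 0.07 on the log2 scale, against 0.28 for Gstt1. Gstt3 was 9.75, 7.76, 9.92 and 10.8 FPKM in CT1 to CT4 and 18.7, 9.95 and 13.2 FPKM in cMU1 to cMU3, again highest in cMU1 (log2 difference 0.49, SE 0.191, adjusted p = 0.162 from limma-trend, and 0.26 without cMU1). Gstt2 was the gene closest to Gstt1 in profile of all genes tested, with a root mean square difference of 0.0566 between the centred log2 values over the 7 mice. By the same measure the genes most like Gstm1 were Abca8b (0.0349), Cd63 (0.0449), Gramd1b (0.0503), Farp1 (0.0506) and Myo10 (0.0512), and the nearest member was Gstm5 (0.097). Those most like Gstm2 were Slc38a2 (0.0355), Aox1 (0.0467), Cpxm1 (0.0535), Sidt1 (0.0566) and Slc38a4 (0.0573), and the nearest member was Gstt1 (0.164).

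Markers of the other cells of the nerve were measured in the same mice. The summed level of 13 astrocyte markers was 3971 to 4490 FPKM in CT and 5086 to 6059 FPKM in cMU nerves, and no marker of the list was at 0 in all mice. Of the 13, 4 passed as higher, Aldh1l1, Slc1a2, Gja1 and Aldoc (limma-trend, adjusted p = 0.0214, 0.0437, 0.0214 and 0.0199), beside 1.26% of all genes tested. The defining markers Gfap and Aqp4 did not pass, with log2 differences of 0.36 and 0.13 (limma-trend, adjusted p = 0.0953 and 0.607). The median log2 difference of the list was 0.50, beside 0.43 for Gstm1. The summed level of 10 meningeal fibroblast markers was 1982 to 2776 FPKM in CT, 2679 and 3031 FPKM in cMU2 and cMU3, and 5026 FPKM in cMU1, where Igf2 alone was 2669 FPKM. In cMU1 the members Gstm2, Gsta4, Gstt1, Gstm5 and Gstk1 were highest, and so was Gstt3. Of this list 1 gene, Slc13a4, passed as higher (limma-trend, adjusted p = 0.0467), and the defining markers Col1a1 and Col1a2 did not, with 399 and 747 FPKM in cMU1 against at most 230 and 413 FPKM in CT. With the replicate block 10 of the 13 astrocyte markers and 8 of the 10 meningeal markers passed as higher, beside 6.42% of all genes. Among them were Col1a1 and Col1a2 (limma-trend, adjusted p = 0.0256 and 0.0251), whereas Gfap and Aqp4 again did not pass (0.0748 and 0.696). Without cMU1 the median log2 difference was 0.35 in place of 0.62 for the meningeal list and 0.56 in place of 0.50 for the astrocyte list, and the members that passed were Gstm1, Gsta4 and Mgst1, all as higher, where all genes passed at 0.786% higher and 0.604% lower. The part of any cell type in the differences of the members was not tested. Microglia, endothelial, mural, Schwann cell and retina or neuron lists had no gene past the threshold with limma-trend, with 3 of 10, 6 of 10, 2 of 8, 1 of 6 and 1 of 5 genes at an unadjusted p under 0.05, beside the 24.4% of all genes. With the block 1, 3, 1, 0 and 1 of them passed, all as higher, beside the same 6.42% of all genes. All 10 endothelial markers had a log2 difference above 0 (median 0.32), with Cldn5 at 0.19 and Pecam1 at 0.30. For 6 of them every cMU mouse was above every CT mouse, beside 12.9% of all genes. The mean deviation of the endothelial list from CT was 0.37, 0.34 and 0.28 in cMU1 to cMU3. The microglia, mural, Schwann cell and retina or neuron lists had medians of 0.14, 0.19, -0.03 and 0.20.

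**Figure D4:**
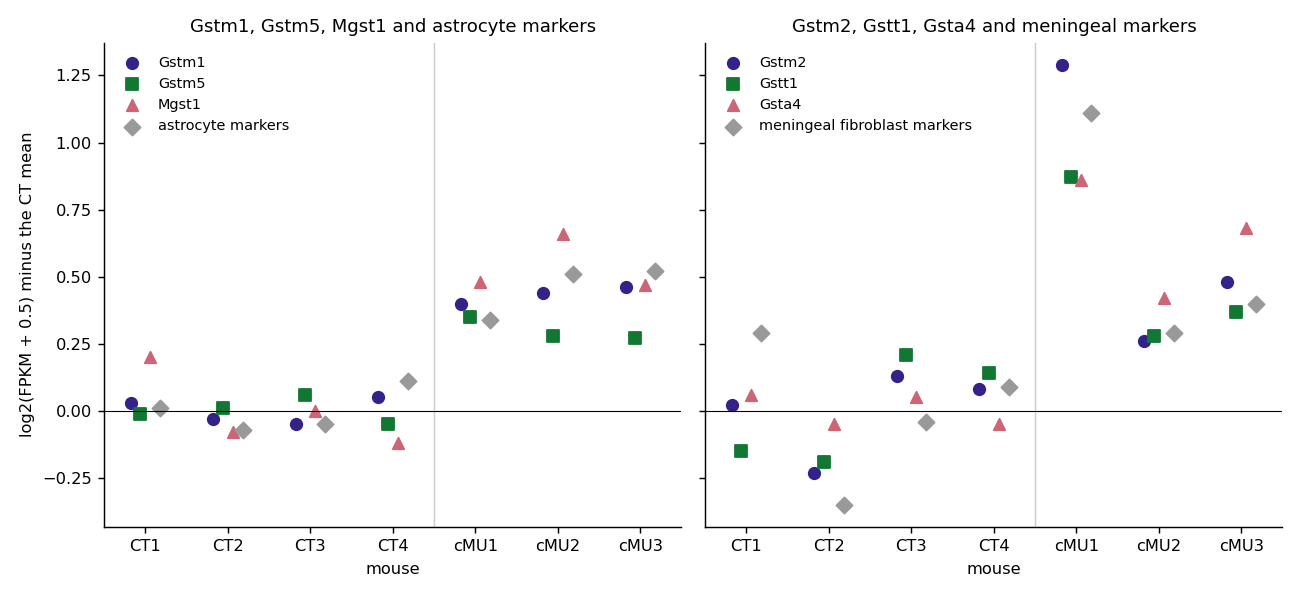
Deviation of log2(FPKM + 0.5) from the CT mean in each mouse, for 3 members and the mean of the astrocyte markers (left) and for 3 members and the mean of the meningeal fibroblast markers (right). In cMU1 Gstm2 deviated by 1.29 and the meningeal markers by 1.11, whereas Gstm1 deviated by 0.40 to 0.46 in all 3 cMU mice. In cMU1 to cMU3 Gstm5 deviated by 0.35, 0.28 and 0.27, and the astrocyte markers by 0.34, 0.51 and 0.52. The panels do not assign a member to a cell type.

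Glutathione itself is made from glutamate, cysteine and glycine, and the supply of cysteine can come through transsulfuration. Of 20 genes tested for synthesis and recycling, 2 passed as higher, 1 as lower, and the median log2 difference was -0.05. With limma-trend 11 (55.0%) had an unadjusted p under 0.05, beside 24.4% of all genes. The 2 that passed as higher encode both steps of transsulfuration. Cbs, cystathionine beta-synthase, ranged from 14.77 to 17.95 FPKM in CT and from 22.57 to 30.35 FPKM in cMU (log2 difference 0.69, SE 0.107, adjusted p = 0.0234 from limma-trend), and Cth, cystathionine gamma-lyase, was 1.04 and 2.00 FPKM (log2 difference 0.70, SE 0.105, adjusted p = 0.0214 from limma-trend). Ggct, a gamma-glutamylcyclotransferase, fell from 6.22 to 3.99 FPKM (log2 difference -0.57, SE 0.106, adjusted p = 0.0339 from limma-trend). Both subunits of the first enzyme of synthesis had nearly equal means, with log2 differences of 0.03 for Gclc and -0.06 for Gclm (adjusted p = 0.832 and 0.719 from limma-trend). Gss, glutathione synthetase, was 60.8 and 47.2 FPKM, and Slc3a2 and Slc7a11, the chains of the cystine transporter, had log2 differences of 0.20 and 0.66, and none of these passed (limma-trend, adjusted p = 0.062, 0.112 and 0.0933). In the blocked fit 4 genes of the list were higher and 1 was lower, Slc7a11 and Oplah being added, beside 6.42% and 1.94% of all genes.

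Among 6 glutathione peroxidase genes tested, 1 passed as higher, none as lower, and the median log2 difference was 0.27. With limma-trend 4 (66.7%) had an unadjusted p under 0.05, beside 24.4% of all genes. Gpx3, the secreted peroxidase, rose from 16.6 to 26.4 FPKM (log2 difference 0.65, SE 0.104, adjusted p = 0.0249 from limma-trend). The most abundant ones, Prdx6 and Gpx4, the latter of which reduces lipid hydroperoxides in membranes, had log2 differences of 0.26 and 0.06 (adjusted p = 0.109 and 0.643 from limma-trend). None of 6 genes for the export of glutathione conjugates passed with limma-trend (3 at an unadjusted p under 0.05, beside 24.4% of all genes). With the replicate block 1 did, Abcg2, at 39.7 FPKM in CT and 54.3 in cMU (log2 difference 0.43, adjusted p = 0.0309 from limma-trend), where 6.42% of all genes passed as higher.

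Of 21 known targets of NRF2, 1 passed as higher and 1 as lower, and the median log2 difference was 0.08, near the 0.05 of all genes. With limma-trend 9 (42.9%) had an unadjusted p under 0.05, beside 24.4% of all genes. The log2 difference was above 0 for 15 and below 0 for 6, against 8329 and 5537 of all genes. The list held none of the GST or synthesis genes given above. Nqo1, a quinone reductase, rose from 6.81 to 12.4 FPKM (log2 difference 0.82, SE 0.139, adjusted p = 0.0274 from limma-trend). Taldo1, the transaldolase of the pentose phosphate pathway, fell from 377 to 268 FPKM (log2 difference -0.49, SE 0.0671, adjusted p = 0.0197 from limma-trend). The others at a high level, Fth1, Ftl1 and Prdx1, did not pass (limma-trend, adjusted p = 0.234, 0.738 and 0.878), and neither did Hmox1 (log2 difference 0.14, adjusted p = 0.513 from limma-trend) or Txnrd1 (0.05, adjusted p = 0.666 from limma-trend). In the blocked fit 3 genes of the list passed as higher and 2 as lower, beside 6.42% and 1.94% of all genes. Among 12 enzymes that remove aldehydes, 2 were higher, none was lower, and the median log2 difference was 0.01. Aldh1a1, a cytosolic aldehyde dehydrogenase, rose from 73.4 to 105 FPKM (log2 difference 0.51, SE 0.0994, adjusted p = 0.0399 from limma-trend), and Aldh7a1, which also acts in lysine breakdown, rose from 71.7 to 93.5 FPKM (log2 difference 0.38, SE 0.0596, adjusted p = 0.0234 from limma-trend). In the blocked fit 4 of the 12 were higher, beside the same 6.42% of all genes.

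**Figure D5:**
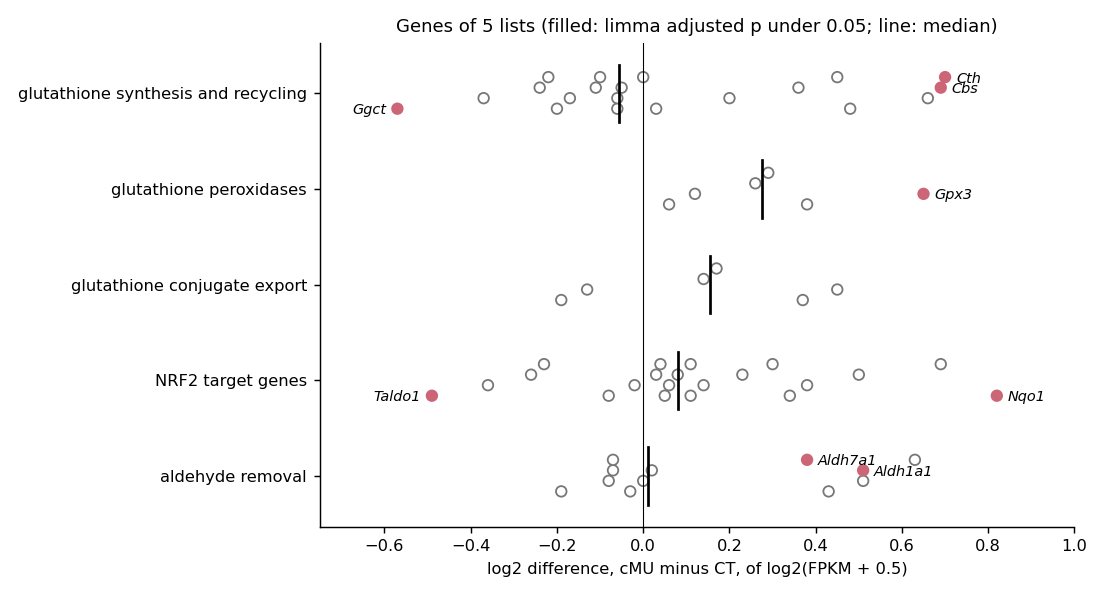
Log2 difference (cMU minus CT, log2(FPKM + 0.5)) of each tested gene in 5 lists related to glutathione and aldehydes, with filled points for genes past an adjusted p of 0.05 in limma-trend and a black line for the median of the list. Genes past the threshold in either direction are named, and the medians run from -0.05 to 0.27.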

How the data were processed

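Optic nerve RNA of 4 control and 3 mutant mice, 1 library per mouse, was sequenced as single reads of 125 bases from a stranded mRNA kit. Per the labels and the methods of the study, the authors aligned cleaned reads to GRCm38 with STAR (2.5.1b) and estimated counts per gene with RSEM (1.2.22), and edgeR is named for their comparison. They deposited 1 table of 22880 genes. For each sample it holds normalized counts, which the authors scaled between libraries and which are used here as a signal, and FPKM values, which they scaled by gene length and library size too. It also holds the log2 ratios, p-values and FDR of the authors' own comparison, which were not used. Depth was read from the smallest step of the normalized counts in each sample. The most frequent low value was 100 of these steps, which was taken as 1 read, since RSEM writes counts to 0.01. Of the values between 0.5 and 10 reads, 68.1% to 75.9% were whole within 0.01, too few for a test on counts.

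Genotypes were compared with limma-trend (limma 3.58.1, R 4.3.3) on log2(FPKM + 0.5), two-sided, for the 13866 genes that reached 0.5 FPKM in 3 or more samples, with Benjamini-Hochberg adjustment over all of them. A fold on this scale understates changes of low genes. Separate litters or days were not given, so p-values measure the spread between these mice. The members and gene lists were chosen with earlier results of these data known. Named were all members, Fasn, and the other GST genes past the threshold or with at least 10% of the FPKM of Gstm1. In each list the genes past the threshold were named, and otherwise up to 3 by level. Also named were the first 2 markers of the OL, astrocyte, meningeal and endothelial lists, and the 5 genes most like Gstm1 and Gstm2. One planned marker of mature OLs is not reported here and was left out of that list. Other genes were named after their values were seen: Gstm3, Gstm4, Gstm6, Gstp2, Gstt2, Gstt3, Ptges and Ltc4s in the family, and Gclc, Gclm, Gss, Slc3a2, Slc7a11, Oplah, Hmox1, Txnrd1, Abcg2, Ugt8a, Igf2 and Ddx3y elsewhere. Deviations from the genotype means were correlated in mice with equal numbers (r across genes 0.168, 0.409 and 0.27 for pairs 1 to 3, -0.353 to 0.205 for other pairs). In pair 1 this was weak, as cMU1 was closer to CT4 (0.205) than to CT1. Mice with equal numbers were also alike in having or lacking Y-linked Ddx3y. The numbers, which the labels do not explain, were taken as pairs and entered as a block in an additional fit. As the pairing was taken from these same values, the blocked calls are no separate evidence. Transcripts for the search of shared stretches and exons were those of GENCODE M21, which is later than the authors' annotation. Other pseudocounts, minimums and scalings, the normalized counts, limma without the trend and leaving out each mouse were alternatives, and a term for Y-linked expression was added after seeing the data.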

Additional observations from a re-analysis of the deposited data

Results flagged for a closer look

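In 4 of 48 sets of control values examined, 1 control mouse stood far from the other 3 by Dixon's criterion, and chance alone gives about 1 in 20. Among the members this was Mgst3, at 11.86 FPKM in CT1, the lowest of the controls. Among the lists it was the summed level of the conjugate export genes, at 111.7 FPKM in CT2 (lowest), that of the aldehyde removal genes, at 700.2 FPKM in CT2 (lowest), and that of the microglia markers, at 373.6 FPKM in CT4 (highest). Groups of 3, as the cMU mice, were not examined in this way.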

How the results depend on the processing

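The direction of 9 of the 10 members was the same under every setting tried; that of Gstp1, near 0, was 0.0034 with the replicate block and without CT4 and below 0 otherwise. Of the members' log2 differences under these settings, 165 lay within 1 SD between mice of the reported value and 5 did not. Scaling by the median of ratios gave 0.39 for Gstm1 and 0.25 for Gstm5, and the normalized counts gave 0.36, 0.22 and, for Gstp1, -0.10.

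Counts of calls were less stable. The 363 genes past the threshold became 95 with no minimum on low values, 234 with libraries scaled to equal sums, 57 without the trend, 1159 with the replicate block and 203 with the term for Y-linked expression. The 4 members past the threshold became 2 with no minimum, 2 on the normalized counts and 1 without the trend, Gstm1. Of the other GST genes, 3 passed with the replicate block and none in the 9 other settings with all mice, where 5 or 6 had an unadjusted p under 0.05 (limma). For synthesis and recycling 1 gene passed with no minimum, 1 without the trend and 5 with the block; for peroxidases 0 with no minimum and 0 without the trend; for conjugate export 1 with the block; for NRF2 targets 1 with no minimum, 1 without the trend and 5 with the block. For aldehyde removal 1 passed with no minimum, 1 with equal sums, 1 on the normalized counts, 0 without the trend, 4 with the block and 1 with the Y-linked term. Blocked counts of the cell type markers stand beside those lists above.

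Leaving out 1 mouse at a time gave 6 to 909 genes (15 without CT2, 6 without CT3, 6 without cMU3, 909 without cMU2), 0 to 5 members, 0 to 3 other GST genes, 0 to 7 genes for synthesis and recycling, 0 to 2 peroxidases, 0 to 3 NRF2 targets and 0 to 3 genes for aldehyde removal. Some genes near 0 changed sign: Gstm4 was -0.0046 with median-of-ratios scaling, -0.04 on the normalized counts, -0.02 with the block and from -0.02 (without CT4) to 0.08 with 1 mouse left out, Gstz1 was -0.0013, -0.03 and -0.006 (without cMU1) to 0.07, Gstcd was -0.02, -0.06 and -0.06 (without cMU3) to 0.08, and Gstp2 was -0.22 to 0.0021 (without CT1). The 4 members and the 8 genes of the glutathione and aldehyde lists past the threshold had the same sign in every setting; signs of the cell type markers were not followed through the settings. Mgst2 could not be given at a minimum of 1 FPKM. The cause of these changes was not tested, beyond the fewer mice or other genes that each setting holds. Genes below about 0.5 FPKM (Gsta1, Gsta2, Gstm3 and Gstt4) rested on 0 to 3 estimated reads per library, so differences in them were not detectable at this depth.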
